A study of Mus musculus with 12 samples.

Results

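Small nucleolar RNAs and the transcripts that carry them were followed across 12 arrays of MIN6 cells, a mouse insulinoma line used as a model of the insulin-producing beta cell. A gene entered the set when a probe set of the array annotation carried a single symbol starting with Snord, Snora, Scarna or Snhg plus a digit, or the symbol Gas5. A gene with several such probe sets is represented by its brightest set on average. The rule found 60 of 19938 genes: 31 C/D box small RNAs (Snord), 20 H/ACA box small RNAs (Snora), 3 small Cajal body RNAs (Scarna) and 6 host transcripts (Gas5, Snhg5, Snhg11, Snhg15, Snhg16 and Snhg17). Of the 54 small RNAs, 53 lie inside another gene of the RefSeq gene table, in 43 different hosts, and for 30 of them the host was measured by a probe set of its own. Only Snord118 lies in no other gene.

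The cells were transfected with an siRNA against Hes3, a transcriptional regulator, or with a scrambled siRNA, each at 2 µM, in wells seeded with 50000 cells, and were assayed 12 to 24 hours later. In the classic condition, called CC here as in the titles, the medium held serum and the oxygen was at 20%. In the defined condition, DC, the medium was free of serum and the oxygen was at 5%. CC has 2 arrays labelled Hes3 and 2 labelled scrambled, and DC has 4 of each, with the DC Hes3 arrays numbered 1, 2, 5 and 7. All arrays came from a single experiment and 1 line, so p-values measure only the spread between these samples, which may be technical. Culture differs in serum and oxygen together, and these cannot be told apart.

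The targeted gene was not lower on the arrays labelled Hes3. Hes3 lay at log2 7.22 to 7.23 on the CC Hes3 arrays and 6.82 to 7.23 on the CC scrambled arrays, and at 7.25 to 7.38 against 7.10 to 7.24 in DC (log2 difference 0.15 ± 0.08 SE, adjusted p = 0.114, limma). The probe set read for Hes3 lay below the median level of all genes (8.11), so a loss of the gene could have gone unseen. Throughout, Hes3 therefore names the label of an array and not a measured loss of the gene, and each direction below rests on that label. Beta cell markers such as Ins2 (12.86), Iapp and Chga were bright, and Gcg and Sst, which mark alpha and delta cells, were bright as well (11.93 and 11.48 on the log2 scale). Not all markers of these cells were bright. Slc2a2 of the beta cell list read 7.65 and Irx2 of the alpha list 8.33. Ppy and Hhex of the delta and pancreatic polypeptide list read 8.79 and 6.34. Markers of other cell types ran from 5.45 (Lum) to 9.16 (Cd68), a range that also held these dimmer markers, with none at 0. On the DC Hes3 arrays 3 of 5 fibroblast, 4 of 4 acinar and 3 of 4 duct markers rose over the DC scrambled arrays. So did 1 of 2 alpha, 2 of 3 delta and pancreatic polypeptide, 2 of 3 macrophage and 1 of 3 endothelium markers. Over all genes 28.9% rose, and dim genes rose more often than bright ones. With all genes split into 4 parts by mean level, 1838 of the 4985 dimmest and 2837 of the 4984 next rose. In the brighter parts 975 of 4984 and 119 of 4985 rose. Of 10 beta cell markers 4 fell and 1 rose, where 18.3% of all genes fell. These markers are bright as a set, with a median level of 11.66, and bright genes fell more often. Of the 4985 brightest genes 2039 fell. Whether the beta cell markers differed from genes of their level was not tested. The log of the summed beta cell markers was 15.65 to 15.78 against 15.79 to 15.86. The log of the summed fibroblast markers was 10.42 to 10.66 against 10.15 to 10.27, of the acinar markers 9.47 to 9.71 against 9.21 to 9.39, and of the duct markers 9.71 to 9.90 against 9.44 to 9.57. Their part in the results below was not tested, and in bulk RNA fewer cells of a type and less RNA per cell cannot be told apart. Arrays of a group correlated at 0.989 to 0.998 over all genes. On the first principal component, which held 61.0% of the variance, DC Hes3 arrays 1 (34.78) and 5 (29.17) lay at 1 end. CC scrambled array 2 (-32.75) lay at the other.

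Small nucleolar RNAs are short noncoding RNAs that guide the chemical modification of ribosomal RNA: the C/D box class directs methylation of the ribose, and the H/ACA box class directs the conversion of uridine to pseudouridine. Small Cajal body RNAs do the same for the RNAs of the spliceosome. In mammals most are cut out of the introns of a host gene, so 1 primary transcript gives a spliced RNA and a small RNA. Many hosts code for ribosomal proteins or translation factors, while others, such as Gas5 and the Snhg genes, give spliced RNAs with no known protein. An array probe inside such an intron reads the small RNA and the unspliced host alike.

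Many hosts belong to the genes whose messenger RNAs begin with a tract of pyrimidines (C and T in the DNA), a feature of translation genes that respond to growth signals. The start regions of some hosts, picked without a fixed rule, and of the Snhg genes that passed a test, are printed for that reason. Other hosts described below, such as Wdr43, Rpl23a, Rps3, Ncl and Nop56, are not shown. Each runs from 20 bases before to 40 bases from the annotated start, in RefSeq's GRCm38.p6 build, 5′ to 3′ on the strand of the gene. Capitals mark the longest run of C and T that begins within 10 bases of the start.
Rpl13a (chr7:45128706-45128765, minus strand): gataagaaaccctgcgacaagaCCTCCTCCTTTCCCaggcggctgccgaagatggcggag
Rack1 (chr11:48800340-48800399, plus strand): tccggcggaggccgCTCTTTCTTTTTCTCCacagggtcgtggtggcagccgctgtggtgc
2410006H16Rik (chr11:62602857-62602916, plus strand): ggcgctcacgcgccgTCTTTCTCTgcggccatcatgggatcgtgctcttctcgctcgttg
Gas5 (chr1:161035146-161035205, plus strand): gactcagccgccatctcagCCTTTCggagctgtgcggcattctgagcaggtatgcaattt
Gm36220 (chr11:106500895-106500954, plus strand): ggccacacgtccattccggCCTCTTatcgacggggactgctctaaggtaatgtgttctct
Snhg17 (chr2:158361470-158361529, minus strand): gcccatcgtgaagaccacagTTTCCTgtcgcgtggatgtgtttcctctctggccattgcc
Snhg15 (chr11:6528721-6528780, minus strand): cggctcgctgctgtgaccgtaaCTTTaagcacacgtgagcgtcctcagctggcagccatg
Snhg11 (chr2:158375693-158375752, plus strand): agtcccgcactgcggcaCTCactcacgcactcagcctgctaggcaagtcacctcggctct
Eef2 (chr10:81176611-81176670, plus strand): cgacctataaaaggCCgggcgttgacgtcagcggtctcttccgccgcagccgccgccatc
Rps3a1 (chr3:86142629-86142688, minus strand): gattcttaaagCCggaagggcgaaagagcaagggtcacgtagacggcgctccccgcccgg
The run is 16 bases long in Rack1, 14 in Rpl13a, 9 in 2410006H16Rik and 6 in Gas5, whose table entry has 2 starts, of which the one with the longer run is shown. A run of 7 or more bases that begins within 10 bases of the start was present in 4552 of 32851 start windows of all genes (13.9%). Taking the longest run of each gene, 15 of 38 host genes with a window held one (39.5%), against 16.01% of all 27025 genes. In Eef2 and Rps3a1 the longest run that begins within 10 bases of the annotated start is 2 bases long, and runs that begin farther from it, such as one later in the Eef2 window, were not counted.

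In serum at 20% oxygen, the small RNAs lay lower on the Hes3 arrays almost without exception, but with 2 arrays a group no single gene passed the test. The log2 difference was below 0 for 51 of 54 small RNAs, with a median of -0.20, against 42.1% of all 19938 genes and a median of 0.02. Of the 20 genes with the lowest differences among all genes, 10 were small RNAs, and Snord73b was the lowest of all. No member passed an adjusted p of 0.05 in limma, where the background was also 0% of all genes. At an unadjusted p under 0.05, 16 of the 54 small RNAs were counted, against 2.08% of all genes. The arrays of the 2 groups did not overlap for 33 of the 60 members, all of them lower on the Hes3 arrays, against a background of 26.9% in either direction and 13.1% in that direction.

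The C/D box class had the lower median. Of 31 C/D box RNAs, 29 were below 0 with a median of -0.26, and of 20 H/ACA box RNAs, 19 were below 0 with a median of -0.13. The 3 Cajal body RNAs lay between -0.16 and -0.09. Snord16a (0.01), Snord85 (0.04) and Snora33 (0.06) were the small RNAs above 0. Other short noncoding RNAs were counted beside them: 133 of 300 microRNAs were below 0 with a median of 0.01, and 7 of 10 small nuclear and other structural RNAs were below 0 with a median of -0.05.

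**Figure D1:**
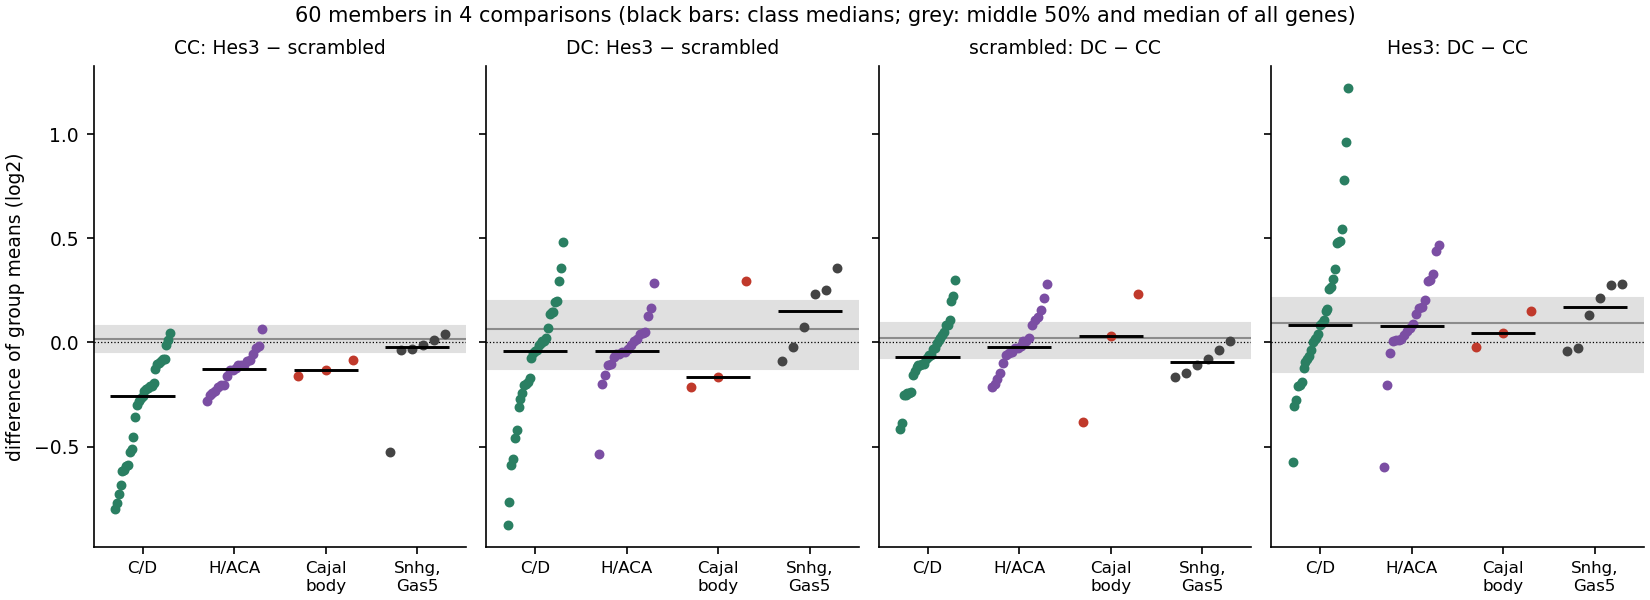
Differences of group means on the log2 scale for the 60 members in 4 comparisons, each point a gene and each black bar a class median, over a grey band that holds the middle 50% of all 19938 genes with their median as a line. In CC, 29 of 31 C/D box RNAs lie below 0, while in the arrays labelled Hes3 the defined condition lies above CC by up to 1.22.

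Snord73b, a guide from an intron of the ribosomal protein gene Rps3a1, read 9.31 and 10.25 on the CC Hes3 arrays and 10.53 and 10.63 on the CC scrambled arrays. Both Hes3 arrays lay below both scrambled arrays, but the Hes3 arrays also lay far from each other (SD 0.67). The difference was -0.80 ± 0.32 (SE, 2 arrays a group).

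Snord33, from the ribosomal protein gene Rpl13a, read 8.59 and 8.87 on the CC Hes3 arrays and 9.80 and 9.12 on the CC scrambled arrays. The groups did not overlap, and the difference was -0.73 ± 0.19 (SE). Snord35a, from the same host, read 10.37 and 10.68 against 11.33 and 10.90 and differed by -0.59 ± 0.17 (SE), again without overlap. Rpl13a itself has no probe set with a symbol of its own.

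Snord53, from an intron of Wdr43, which codes for a factor of small subunit assembly, read 9.56 and 10.09 on the CC Hes3 arrays and 10.73 and 10.29 on the CC scrambled arrays. The difference was -0.69 ± 0.20 (SE), while Wdr43 differed by -0.02. Snord104, from the noncoding gene Gm36220, read 10.59 and 10.96 against 11.63 and 11.11, a difference of -0.59 ± 0.18 (SE). In each of these RNAs the Hes3 arrays lay below the scrambled arrays without overlap, and 1 of the 2 scrambled arrays, replicate 1, was well above the other.

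On the brightest probe set of each, Gas5 was among the 6 host transcripts the only one far below 0, together with its small RNA. Gas5, a noncoding transcript known for rising in growth arrest, read 10.14 and 10.49 on the CC Hes3 arrays and 10.92 and 10.76 on the CC scrambled arrays. Snord47, which lies in a Gas5 intron, read 7.79 and 8.64 against 9.13 and 8.84. Neither set of arrays overlapped, and the differences were -0.53 ± 0.14 (SE) for Gas5 and -0.77 ± 0.24 (SE) for Snord47, both with an adjusted p of 1.00 in limma. The other probe sets of Gas5 differed less, by -0.09 (10351026), -0.06 (10351035) and -0.31 ± 0.43 (SE, 10351039). The other 5 host transcripts lay between -0.04 and 0.04.

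The size of the shift depended on single arrays. The median over the 60 members was -0.18 with 55 below 0. Without CC scrambled array 1 it was -0.11 with 46 below 0, without CC Hes3 array 2 it was -0.11 with 48 below 0, and without CC scrambled array 2 it was -0.24. The median deviation of the 31 C/D box RNAs from their means over the 12 arrays was -0.11 and -0.13 on the CC Hes3 arrays and 0.21 and 0.06 on the CC scrambled arrays. The same measure ran from -0.12 to 0.28 over the 4 DC Hes3 arrays, so arrays within that group differed by more than the CC groups did.

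**Figure D2:**
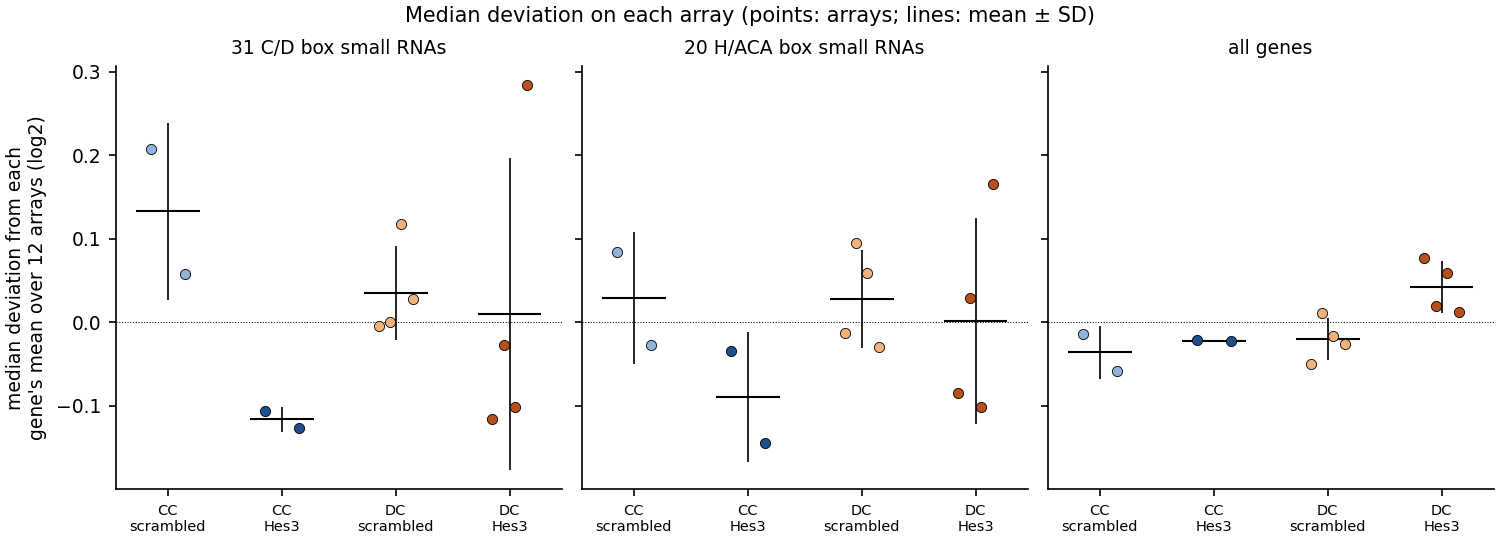
Median deviation from each gene's mean over the 12 arrays, on the log2 scale, for the C/D box RNAs, the H/ACA box RNAs and all genes, each point an array with mean ± SD per group. DC Hes3 array 7 stands at 0.28 for the C/D box RNAs, above the other 3 arrays of its group (-0.12 to -0.03).

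Small RNAs and hosts parted in CC. Of the 30 small RNAs with a measured host, 28 were below 0, while the host was below 0 in 16 of the 30 pairs. The small RNA lay below its host in 28 of 30 pairs, with a median difference between them of -0.22. Of 12 host genes for ribosomal proteins and translation factors, 3 were below 0 with a median of 0.02, and of the 14 other hosts 11 were below 0 with a median of -0.07. The C/D box RNA Snord57, for example, differed by -0.45 and its host Nop56, a core protein of the C/D box particle, by 0.02. Likewise Snord42a differed by -0.61 and its host Rpl23a, a protein of the large ribosomal subunit, by 0.04.

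**Figure D3:**
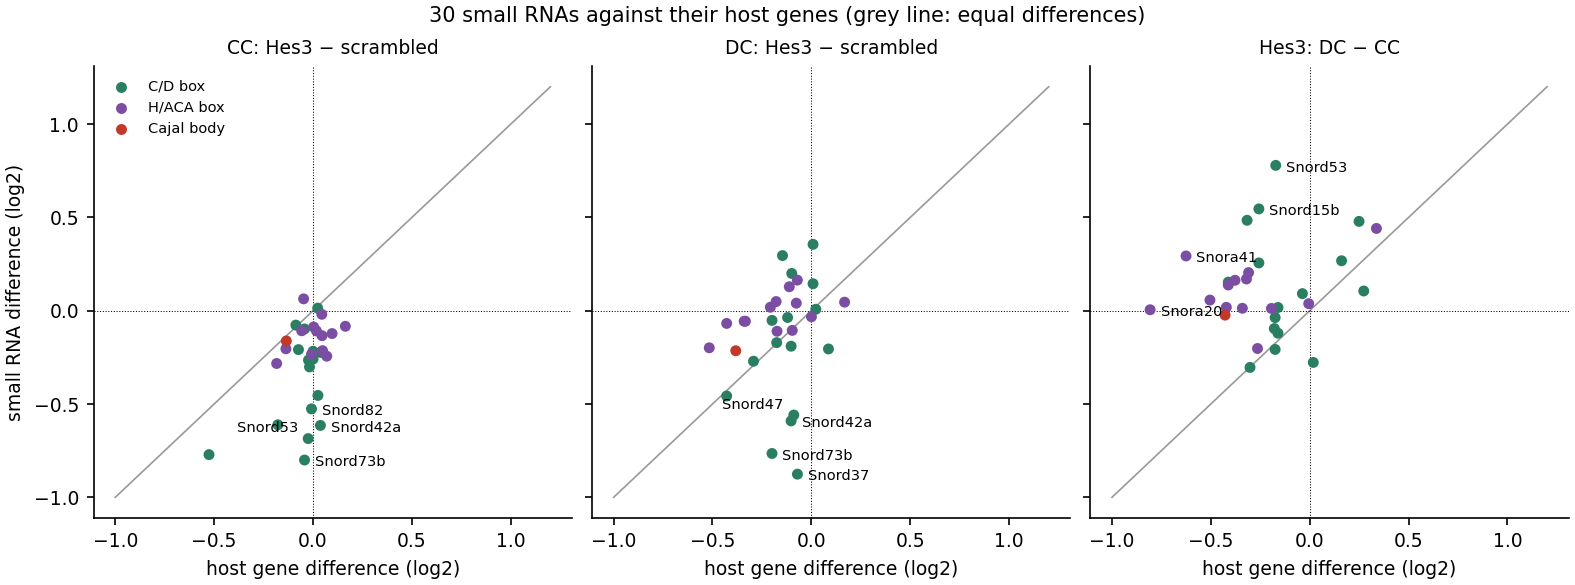
Log2 difference of 30 small RNAs against that of their host genes in 3 comparisons, coloured by class, with a grey line of equal differences. In CC most points lie under the line with hosts close to 0, and in the third panel 26 of 30 points lie above it.

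In the defined condition, 16 of the 60 members passed the test between the Hes3 and the scrambled arrays (26.7%), a smaller share than the 47.2% of all genes that did. Of these, 7 rose, against a background of 28.9%, and 9 fell, against a background of 18.3%. The median over the 54 small RNAs was -0.04. At 1.5-fold or more, 3 members were called, all lower (Snord37, Snord73b and Snord42a), against 0.983% of all genes. The arrays of the groups did not overlap for 9 members (15.0%), a smaller share than the 40.9% of all genes. Of these 2 were lower, against a background of 17.0%, and 7 higher, against 23.9%. Whether members or all genes had the larger share of calls depended on the normalization. With quantile normalization 18 of 60 members and 4707 of 19938 genes passed, a larger share of the members.

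Snord37 fell furthest. This C/D box RNA from an intron of Eef2, the elongation factor that moves the ribosome along the message, read 6.85, 7.37, 7.12 and 7.47 on DC Hes3 arrays 1, 2, 5 and 7. On the 4 DC scrambled arrays it read 8.17, 8.11, 8.02 and 8.01. Every Hes3 array lay below every scrambled array, and the difference was -0.88 ± 0.10 (SE, 4 arrays a group, adjusted p = 0.00092, limma). Eef2 lay at 12.50 to 12.57 and 12.55 to 12.66 in the same groups and differed by -0.07 (adjusted p = 0.303, limma). In CC, Snord37 read 7.53 and 7.43 against 7.71 and 7.84, lower without overlap by -0.30 ± 0.15 (SE), which did not pass.

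The other decreases overlapped between groups, apart from Snord47. Snord47 read 8.02, 8.38, 8.07 and 8.80 on the DC Hes3 arrays and 8.88, 8.81, 8.84 and 8.98 on the scrambled arrays, and fell by 0.56 (adjusted p = 0.017, limma). Array 7 of the Hes3 group lay only just below the lowest scrambled array. Snord73b read 9.67, 9.31, 9.20 and 10.46 on the Hes3 arrays and 10.20, 10.56, 10.28 and 10.66 on the scrambled arrays, and fell by 0.77 (adjusted p = 0.016, limma), with Hes3 array 7 inside the scrambled range. The remaining decreases were Snord42a (-0.59), Snora69 (-0.53), Snord82 (-0.46), Snord49a (-0.31), Snord61 (-0.27) and Snord38a (-0.20).

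Among the increases were 3 of the 6 host transcripts. Snhg11 read 8.05, 7.97, 7.95 and 7.93 on the DC Hes3 arrays and 7.49, 7.70, 7.66 and 7.61 on the scrambled arrays, and rose by 0.36 ± 0.07 (SE, adjusted p = 0.0034, limma). Snhg17 read 9.37, 9.27, 9.44 and 9.29 against 8.97, 9.16, 9.15 and 9.08, and rose by 0.25 ± 0.07 (SE, adjusted p = 0.010, limma). Both sets lay wholly above the scrambled arrays, as did Snhg15, which rose by 0.23 (adjusted p = 0.039, limma). Snhg5 (0.07), Snhg16 (-0.02) and Gas5 (-0.09) did not pass.

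Snord33 took opposite sides in the 2 conditions. On the DC Hes3 arrays it read 9.72, 9.87, 10.04 and 10.17, and on the scrambled arrays 9.50, 9.25, 9.72 and 9.42. It rose by 0.48 ± 0.14 (SE, adjusted p = 0.013, limma), whereas in CC both Hes3 arrays lay below both scrambled arrays. In DC each Hes3 array lay above each scrambled array, but only just, as the nearest 2 both round to 9.72. The other small RNAs that rose were Snord15b (0.36) from Rps3, Snord8 (0.30) and the Cajal body RNA Scarna17 (0.29). When each array was centred on its median, the split of member calls was 4 higher and 10 lower in place of 7 and 9.

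The number of calls depended on DC Hes3 arrays 1 and 5. Without both arrays, which leaves 2 arrays in the group, 1 of the 16 calls remained, that of Snord37 (-0.66, adjusted p = 0.00864, limma), while 331 of all genes were called in place of 9408. The increases stayed close in size, with Snord33 at 0.55, Snhg11 at 0.33 and Snord8 at 0.30, while the decreases were smaller, with Snord82 at -0.14, Snord47 at -0.28 and Snord42a at -0.34. Without array 1 alone the count was 10, and Snord37 passed under all 21 alternatives that gave it a value.

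**Figure D4:**
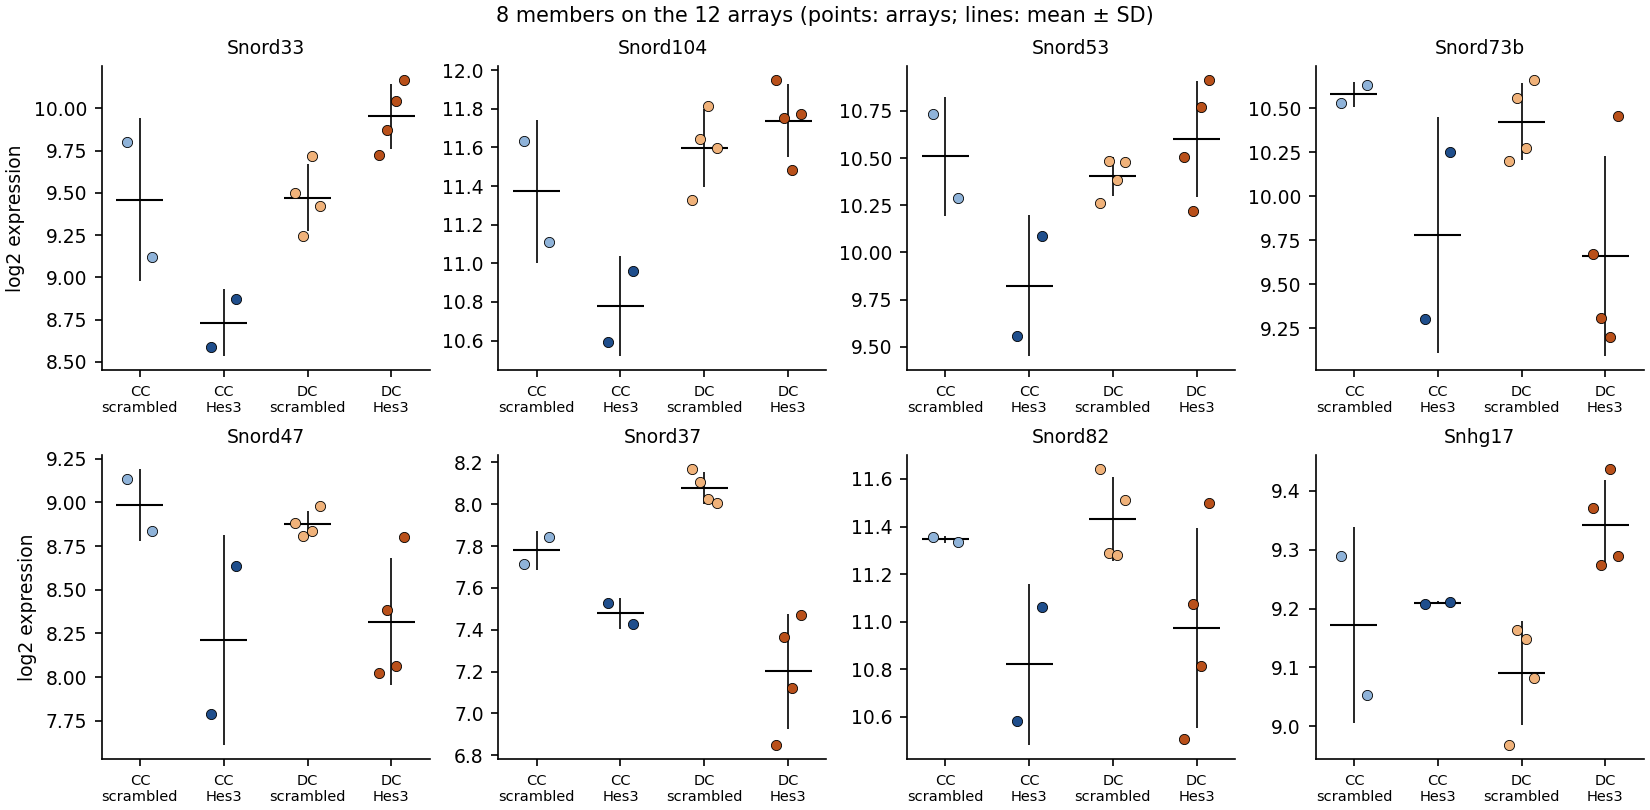
Log2 expression of 8 members on each of the 12 arrays, points for arrays with mean ± SD per group, each panel on its own scale. Snord37 is lower on all 4 DC Hes3 arrays (6.85 to 7.47) than on all 4 DC scrambled arrays (8.01 to 8.17), and Snord33 lies lowest on the 2 CC Hes3 arrays (8.59 and 8.87).

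Calls of hosts and small RNAs were counted by pair in DC, where 47.2% of all genes passed. In 3 of 30 pairs both passed, in 5 only the small RNA, in 7 only the host and in 15 neither. Whether joint calls were fewer or more than in unrelated pairs was not tested. Snord82 and its host Ncl, which codes for nucleolin, both fell (-0.46 and -0.43), as did Snord61 and its host Rbmx, an RNA-binding protein gene (-0.27 and -0.29). Snord8 rose by 0.30 while Chd8, the gene around it, fell by 0.15, and Snord8 also lies inside the noncoding gene Gm26590. Snora75 shares the host Ncl with Snord82 and differed by -0.07 without passing. The hosts that fell alone included Tcp1, a chaperonin subunit (-0.52, with Snora20 at -0.20), and Rpl23, a large subunit protein (-0.34, with Snora21 at -0.06).

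Between the scrambled arrays of the 2 conditions, few members differed. Of the 60, 2 passed (3.33%), both lower in DC, against 8.54% of all genes, of which 3.09% were higher and 5.45% lower. At 1.5-fold or more none passed, against 1.74% in either direction and 1.18% lower. The arrays did not overlap for 12 members (20.0%), 11 of them lower, against 27.9% of all genes and 14.1% in that direction. Snord118, the U8 RNA that acts in the maturation of the large subunit RNA and has its own promoter, read 6.79, 7.13, 7.00 and 6.88 in DC and 7.36 and 7.38 in CC. It was lower on every DC array and fell by 0.42 ± 0.08 (SE, adjusted p = 0.0047, limma). Scarna17 read 11.84, 11.82, 11.87 and 11.72 in DC and 12.39 and 12.00 in CC, and fell by 0.38 ± 0.11 (SE, adjusted p = 0.038, limma), also without overlap. Snord118 passed under 19 of 21 alternatives and Scarna17 under 10 of 22. The count became 1 on leaving out any 1 CC array, any 1 DC scrambled array or DC Hes3 array 5.

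Between the Hes3 arrays of the 2 conditions, 11 members passed (18.3%), against 40.1% of all genes. Of them 10 were higher in DC, against a background of 21.2%, and 1 was lower, against 18.8%. At 1.5-fold or more 4 passed, against 5.53% of all genes, and 1 of them was lower, against 5.17%. The arrays did not overlap for 17 members (28.3%), against 61.8% of all genes, and 1 of these was lower, against 23.4%. This comparison uses the same 2 CC Hes3 arrays as the siRNA comparison in CC, so the 2 comparisons are not separate evidence. Snord33 was 1.22 ± 0.17 (SE) higher in DC (adjusted p = 8.95e-05, limma), rank 2 from the highest of all 19938 genes. Snord104 read 11.95, 11.75, 11.48 and 11.77 on the DC Hes3 arrays against 10.59 and 10.96 on the CC Hes3 arrays, and rose by 0.96 ± 0.16 (SE, adjusted p = 0.00039, limma).

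Snord53 read 10.51, 10.22, 10.77 and 10.91 on the DC Hes3 arrays against 9.56 and 10.09 on the CC Hes3 arrays, and rose by 0.78 ± 0.17 (SE, adjusted p = 0.0038, limma). All DC arrays lay above both CC arrays in these 3 RNAs. The other increases were Snord15b (0.55), Snord57 (0.48), Snord35a (0.48), Snord8 (0.48), Snora30 (0.44), Snord55 (0.30) and Snhg11 (0.28), and Snora69 fell by 0.60. Snord33 and Snord104 passed under all 22 alternatives, whereas leaving out either CC Hes3 array left 5 calls and leaving out DC Hes3 array 7 gave 18. When each array was centred on its median, 8 members were higher and 3 lower in place of 10 and 1. With quantile normalization 17 of 60 members and 5524 of 19938 genes passed, which are similar shares.

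Bright small RNAs and other bright genes took different signs here. Of the 4985 genes with the highest mean levels, 72.4% were below 0 between the Hes3 arrays of DC and CC, and of the 18 small RNAs among them 2 were. The small RNA lay above its host in 26 of 30 pairs, with a median difference of 0.29, and the host was below 0 in 25. In 12 pairs only the host passed, in 2 only the small RNA and in 13 neither, where 40.1% of all genes passed. Hosts that passed alone included Tcp1 (-0.81 beside 0.01 for Snora20) and Eef1b2, an elongation factor subunit (-0.63 beside 0.29 for Snora41). In 3 pairs both passed: Snord57 rose by 0.48 while Nop56 fell by 0.32, and Snord8 with Chd8 and Snora30 with Srcap, a chromatin remodeller gene, rose together.

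Whether the siRNA comparison differed between conditions was tested as an interaction. No member and no other gene passed (background 0%), while 13 of the 60 members and 17.4% of all genes had an unadjusted p under 0.05 in limma. The interaction value was above 0 for 43 of 54 small RNAs, with a median of 0.11 against 0.05 over all genes. Snord33 had the highest value of all genes (1.21 ± 0.24 SE, adjusted p = 0.180, limma), followed by Snord53 (0.89) and Snord104 (0.74). Without CC scrambled array 2, 10 members and 2056 genes in all were called, so the absence of calls depends on that array.

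Small RNAs of the same host did not always share a value. In Rps3a1, Snord73b differed by -0.80 in CC and -0.77 in DC, and Snord73a by -0.10 and -0.05. In Rpl23a, Snord42a differed by -0.61 and -0.59, and Snord42b by -0.22 and -0.19. The neighbours also differed in mean level, with 10.09 for Snord73b and 6.59 for Snord73a, and 7.95 for Snord42a and 9.075 for Snord42b. These values come from probe sets on the same arrays, and the differences between neighbours were not tested.

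Within Rps3, a small subunit protein gene, Snord15b rose in DC by 0.36 and Snord15a stood at 0.14 (adjusted p = 0.271, limma). In Rack1, which codes for a scaffold protein of the small subunit, Snord95 stood at -0.10 in CC and 0.14 in DC, and Snord96a at -0.20 and -0.04. In 2410006H16Rik, Snord49a differed by -0.36 in CC and fell by 0.31 in DC, and Snord49b stood at -0.28 and 0.0047. The small RNAs inside Snhg genes without a probe set of their own did not pass: Snora73a and Snora73b of Snhg3 stood at -0.25 and -0.20 in CC, and Snora16a and Snora44 of Snhg12 at -0.05 and -0.03. Snora74a of Snhg4, Scarna13 of Snhg10 and Snord22 of Snhg1 lay at -0.16, -0.09 and -0.13 there.

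The 4 probe sets of Gas5 gave different values. The brightest, 10351037, is the one used above. In a fit over all 21789 probe sets with a single symbol, the 4 sets differed in DC by -0.09 (10351037), 0.02 (10351026), -0.33 (10351035, adjusted p = 0.0498, limma) and -0.77 (10351039, adjusted p = 0.0499, limma). In CC they differed by -0.53, -0.09, -0.06 and -0.31 in the same order, and none passed. On all 4 sets DC Hes3 array 7 was the highest of its group.

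**Figure D5:**
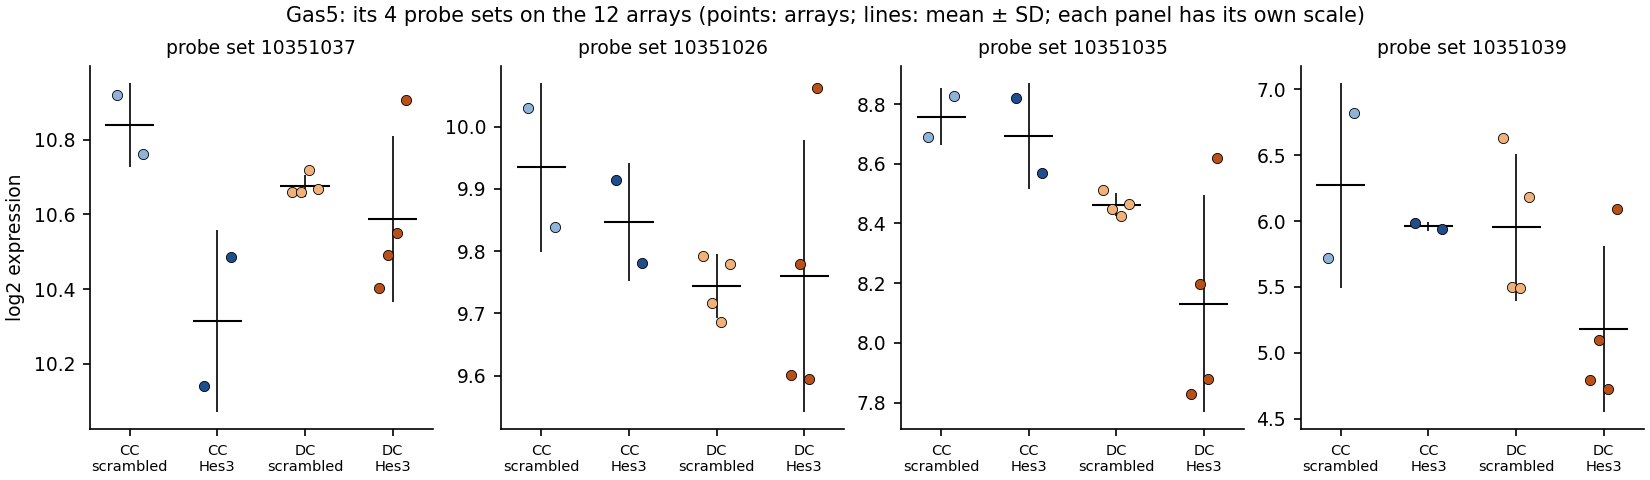
Log2 expression of the 4 Gas5 probe sets on the 12 arrays, points for arrays with mean ± SD per group, each panel on its own scale. In DC the dimmest set has 3 Hes3 arrays at 4.73 to 5.10 and array 7 at 6.09, while the brightest set has those 3 arrays at 10.40 to 10.55 and array 7 at 10.91.

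The spread within groups was larger for the small RNAs than for most genes. The median SD over the 4 DC Hes3 arrays was 0.20 for the 54 small RNAs and 0.11 for all genes, and over the 4 DC scrambled arrays 0.13 and 0.07.

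Genes that build or act with these RNAs were described from lists of the proteins of both particles and of the steps around them. Among the 4 core proteins of the C/D box particle, Nop58 fell in DC with the Hes3 label (-0.38, adjusted p = 0.021, limma) and Fbl, the methyltransferase, Nop56 and Snu13 did not pass. Among the 4 of the H/ACA particle, Dkc1, the pseudouridine synthase, fell by 0.54 (adjusted p = 0.0065, limma). Of 14 assembly and Cajal body factors, 4 fell: Tgs1, which methylates the cap of small nuclear RNAs (-0.37), Nufip1 (-0.40), Naf1 (-0.31) and Phax (-0.20). All of these are to be read against the 18.3% of all genes that fell, a share that was higher among bright genes.

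Of 38 genes of RNA polymerase I and ribosomal RNA processing, 14 fell in DC, against 18.3% of all genes, and none rose, against 28.9%. Their median level was 9.14, against 8.11 for all genes, and bright genes fell more often. Of the 4985 brightest genes 2039 fell and 119 rose, and of the 4984 next 1231 fell and 975 rose. The exonuclease and decay lists below have median levels of 9.05 and 9.13. Whether a list differed from genes of its level was not tested. The polymerase I and processing genes that fell included Imp3 (-0.51), Wdr75 (-0.33), Bms1 (-0.30) and Utp20 (-0.21). Of 15 genes for intron debranching and RNA exonucleases, 2 rose and 7 fell, against the same 28.9% and 18.3% of all genes, with the exosome subunits Exosc3 and Exosc8 at 0.46 and -0.46. Of 10 nonsense-mediated decay factors, which act on Gas5 and other noncoding hosts, Upf2 (-0.41) and Eif4a3 (-0.36) fell, against 18.3% of all genes. In CC no gene of these lists passed. Between the Hes3 arrays of the 2 conditions, Dkc1 fell by 0.74, Nop58 by 0.52 and Imp3 by 0.76. There 16 of the 38 polymerase I and processing genes fell, against 18.8% of all genes. Of the 4985 brightest genes 2218 fell in that comparison, and of the 4984 next 1226.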

How the data were processed

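RNA of 12 MIN6 samples was labelled from 250 ng with the Ambion WT Expression Kit and hybridised to Affymetrix gene arrays, per the labels. The authors' deposited value table holds log2 expression for 35556 probe sets, from 3.94 to 14.44; the scale was inferred from its values, and background correction, normalization and build are not given in the sources used here. The array annotation gave 21789 probe sets 1 symbol, 1621 several and 12146 none, and 41 of those with several name a small RNA or host and were left out. The members and the gene lists were chosen with earlier results of these data known. Named genes are the host transcripts, the small RNAs inside them, those with the largest non-overlapping calls in each comparison, those of the 10 hosts holding most small RNAs (ties in alphabetical order) and the brightest and dimmest 3; Snord61, Snora20, Snora21 and Snora41 were named after their values were seen.

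Group means over 12 arrays were fitted with limma 3.58.1 in R 4.3.3 (lmFit, eBayes; 8 residual degrees of freedom), with Benjamini-Hochberg adjustment over 19938 genes and a threshold of 0.05; the fit was tested on simulated data. The host is the gene of the RefSeq table that contains the small RNA; that table gives no strand, so overlap on the other strand was possible, and 3 small RNAs lie in several genes. Array number limits the precision. Alternatives were 3 other normalizations, a filter on dim genes, other fit settings, a replicate block and leaving out arrays. Python 3.11.15 with pandas 2.3.3 and matplotlib 3.10.9 made the summaries.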

Additional observations from a re-analysis of the deposited data

Results flagged for a closer look

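In groups of 4 arrays, 1 array stood far from the other 3 in 5 of 120 groups examined, where chance alone marks about 1 in 20. On DC Hes3 array 7, Snhg16 read 7.177 (others 6.856 to 6.902), Snora31 read 7.498 (others 7.225 to 7.267) and Snora75 read 8.027 (others 7.549 to 7.616). Gas5 on DC scrambled array 3 read 10.72 (others 10.66 to 10.67), and Snhg15 on DC scrambled array 4 read 8.465 (others 8.557 to 8.57).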

How the results depend on the processing

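In CC no member was called under any alternative, and the median over members stayed below 0 in each (-0.24 to -0.11). For DC, the 16 member calls became 5 with the replicate block, 1 without DC Hes3 arrays 1 and 5, and 3 at a minimum of 1.5-fold, and leaving out single arrays gave 10 to 23. Between the scrambled arrays, the 2 calls became 1 with quantile normalization, cyclic loess, dim genes left out or array weights, and 0 with the replicate block or at 1.5-fold, with 1 to 2 on leaving out single arrays. Between the Hes3 arrays, the 11 calls became 17 with quantile normalization or array weights, 6 with the replicate block and 4 at 1.5-fold, with 5 to 18 on leaving out single arrays (18 without DC Hes3 array 7). The interaction gave 0 calls except 10 without CC scrambled array 2. Over all genes, the 9408 DC calls became 4707 with quantile normalization, 4111 with cyclic loess and 620 with the replicate block. Members called under these 3 settings were 18, 18 and 5 of 60, in each a larger share than that of all genes. With arrays centred on their median 14 members and 8338 genes were called, a smaller share of the members. Between the Hes3 arrays 5524 genes were called with quantile normalization, 9747 with array weights and 4051 with the replicate block. The main fit did not pair arrays by replicate number. Each condition shares 2 numbers, with correlations of the deviations of 0.25 in CC and -0.37 and -0.33 in DC. With 2 arrays a group, the CC deviations mirror each other and give 1 value. These few values cannot settle whether the arrays were paired. Using all 72 member probe sets gave 22 calls in DC, 4 between the scrambled arrays and 16 between the Hes3 arrays. The 2 sets of Snord118 hold identical values, as do those of Scarna17 and of Snora30, so some calls count the same values again. The 4 calls between the scrambled arrays were the sets of Snord118 and Scarna17. The share of all 21789 probe sets called was not counted. Where an array left out leaves a group with 1 array, that array is assumed to vary like the other groups. The cause of these differences was not tested. With 2 arrays a group in CC, the number of arrays limits what can be called.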

Other observations

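Probe sets that carry several symbols were outside the 60 members and were not tested, and their signal may come from any gene they name. Of 41 such sets with a small RNA or host name, the values fall into 22 distinct profiles. The 24 sets named for Snord116, the C/D box cluster of the imprinted Prader-Willi region, give 7 profiles, and 18 of the sets hold identical values. In CC their differences between the Hes3 and scrambled means ran from -0.71 to -0.63, and in DC from -0.85 to -0.59. On 1 of these sets, 10564163, the CC Hes3 arrays read 7.99 and 8.02 and the CC scrambled arrays 8.70 and 8.72. In DC it read 7.89, 8.41, 7.86 and 8.72 on the Hes3 arrays and 9.37, 8.39, 9.39 and 9.15 on the scrambled arrays, where scrambled array 2 lay apart from the other 3 and inside the Hes3 range.

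Of 5 sets shared by a small RNA and a ribosomal protein gene, the 3 that name Rpl13a or Rpl13 lay furthest below 0 in CC. The set named for both Snord34 and Rpl13a read 9.002 and 9.933 on the CC Hes3 arrays and 10.68 and 10.25 on the CC scrambled arrays, a difference of means of -0.99, against -0.0049 in DC. The set named for Snord68 and Rpl13 read 7.07 and 7.61 against 8.54 and 8.10, a difference of -0.98, against -0.12 in DC. The set named for Snord32a and Rpl13a differed by -0.50 in CC and -0.05 in DC. The other two stood nearer 0 in CC: the set named for Rpl12 and Snora65 differed by -0.04 in CC and 0.04 in DC, and the set named for Snord14a and Rps13 by -0.12 and -0.15. The set named for Snora28 and Eif5 differed by -0.17 in CC and -0.67 in DC, and the set named for Snora43 and Snhg7 by 0.06 and 0.36.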
